A study of Danio rerio with 40 samples.

Results

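Collagen genes were taken as the genes whose symbol begins with col, a type number, the letter a and a chain number. The rule found 54 genes among the 20454 listed in the deposited tables of either organ, 54 of them listed for eye and 51 for brain. The 3 found in eye alone were col17a1a, col8a1a and col28a2b. Poly(A) RNA was sequenced from dissected whole eyes and brains of adult fish, either of the zebrafish line wh5, in which cyp1b1 is knocked out, or wild type (WT). The 40 samples form 8 groups of 5, which are wh5 females, wh5 males, WT females and WT males for each organ, so that each organ has 10 wh5 and 10 WT samples. Strain background and exact age are not stated in the labels, and nothing states whether eyes and brains came from the same fish. In all 40 samples the title gives one organ and the source field the other, and titles were followed here. The photoreceptor gene rho had a base mean, the mean of normalised counts over all samples compared, of 632710 for eye and 1359 for brain in the authors' deposited tables. For elavl3, a gene of neurons, it was 3012 for eye and 11919 for brain. The other neuron gene read for this check, gad1b, went the other way, with 25073 for eye and 20798 for brain. For cyp1b1 itself the authors' deposited tables give a log2 fold change, wh5 over WT, of 0.54 (SE 0.14, adjusted p = 0.016) in eye and -0.17 (SE 0.14) in brain, so the level of the targeted gene does not check the direction, which rests on the tables' names. The tables hold the authors' comparison of wh5 with WT and no value of a single sample, so sexes and single fish could not be shown and library depth is unknown. Errors are the standard errors (SE) that the authors' model gave, and they measure the spread between samples whose separate origin the labels do not state. In whole organs, fewer cells of a type and less RNA per cell cannot be told apart.

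Collagens are extracellular proteins whose chains wind around each other into a rope-like helix that depends on regularly spaced glycines. Fibrillar collagens give cornea, sclera, bone and cartilage their tensile strength, while collagen IV forms the sheet-like network of basement membranes. Fibril-associated collagens, called FACIT, sit on the surface of fibrils, and transmembrane and anchoring-fibril collagens tie epithelia to the tissue beneath. In the eye these proteins make up most of the cornea, sclera and lens capsule, and in the brain they are largely found in vessel walls and meninges. In people, mutations of CYP1B1 cause primary congenital glaucoma, a disease of the drainage tissue at the front of the eye, which is rich in extracellular matrix.

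Collagen transcripts made up a larger share of the eye table than of the brain table. Summed base means of the members were 0.392% of the total in eye and 0.0427% in brain, with no correction for transcript length. Of the 51 genes in both tables, 46 had a higher base mean in eye, which is 90.2% against 47.5% of the 18275 genes in both tables. In 19 of them, 37.3%, the eye value was at least 10 times the brain value, against 5.997% of all genes. These ratios have no error and set side by side tables that the authors normalised separately. The largest ratio was 351, for col17a1b, which encodes a hemidesmosome collagen of stratified epithelia, with base means of 6674 in eye and 19.03 in brain. Next came the pair of type X genes, col10a1b with 4994 in eye and 31.7 in brain, and col10a1a with 3723 and 35.7. In mammals type X collagen marks hypertrophic cartilage. The 3 genes for type I chains, the main fibril protein of cornea, sclera and bone, had eye base means of 10097 (col1a1a), 10047 (col1a1b) and 9540.4 (col1a2), and brain base means of 209, 197 and 241.5. Only 5 members had the higher base mean in brain. They were the fibril-associated genes col14a1a (437 in eye, 917 in brain) and col19a1 (115 in eye, 187 in brain), col27a1b (136 and 147), col7a1l (99.2 and 111) and col28a2a (7.54 and 38.0).

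**Figure D1:**
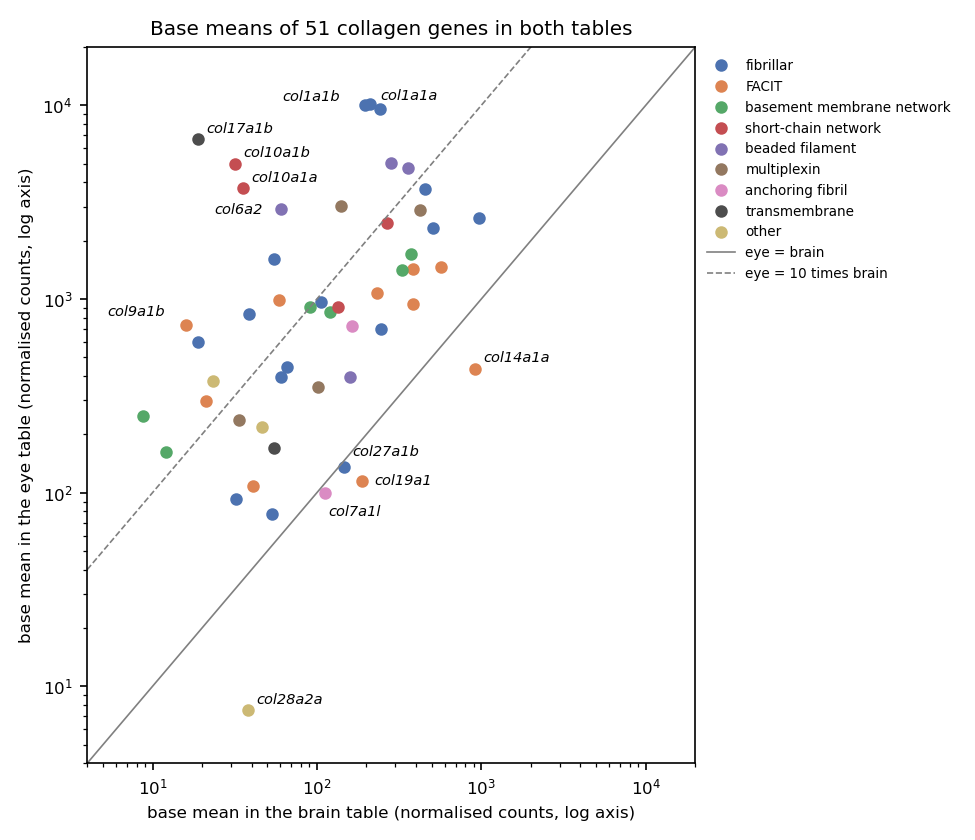
Each point is 1 of the 51 collagen genes in both deposited tables, coloured by class, with the base mean in the eye table on the y axis and in the brain table on the x axis, both in normalised counts on log axes. The solid line marks equal values and the dashed line an eye value 10 times the brain value, and 46 points lie above the solid line.

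In the eye, 1 collagen gene passed the test between wh5 and WT. Called here means that the authors' deposited table lists an adjusted p below 0.05. This held for col24a1 alone, 1 of 54 members or 1.85%, where 1.67% of all 19429 genes were called and 0.973% were called higher, so the share of members was near that of all genes. The gene encodes a fibrillar collagen that in mammals is found in developing bone and cornea. Its level was higher in wh5 eyes: the authors' deposited table gives col24a1 a base mean of 696 and a log2 fold change of 0.54 (SE 0.16), and the adjusted p of their DESeq2 model is 0.0458. This is a fold of 1.46 with a 95% interval of 1.17 to 1.81. The call did not hold when the spread of all genes' statistics was used as the null distribution (adjusted p = 0.668) or when the chromosome of cyp1b1 was left out (0.0546). Over the alternatives tried the adjusted p of col24a1 ran between 0.0445 and 0.668. At an unadjusted p below 0.05 the eye count was 6 members, 11.1%, against 14.2% of all genes. At an adjusted p below 0.1 it was 4 members, 7.41%, against 3.3% of all genes.

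The collagen genes in eye were more often below 0 than above it. Of the 54 members, 38 had a negative log2 fold change in the authors' deposited table, 70.4%, against 48.1% of all genes in that table. The median of the members was -0.10, and that of all genes was 0.01, while the mean of the members weighted by the inverse squared SE was -0.05. Values of the members lay between -0.64 and 0.62, so no collagen gene had a doubling or halving as its estimate in eye. For 44 members the 95% interval lay within 1 log2 unit of 0, and for 16 it lay within 0.5 units. Over all 19429 genes of the eye these counts were 16517 and 11251. Both are larger shares than those of the members, so the members were bounded less tightly than genes in general.

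**Figure D2:**
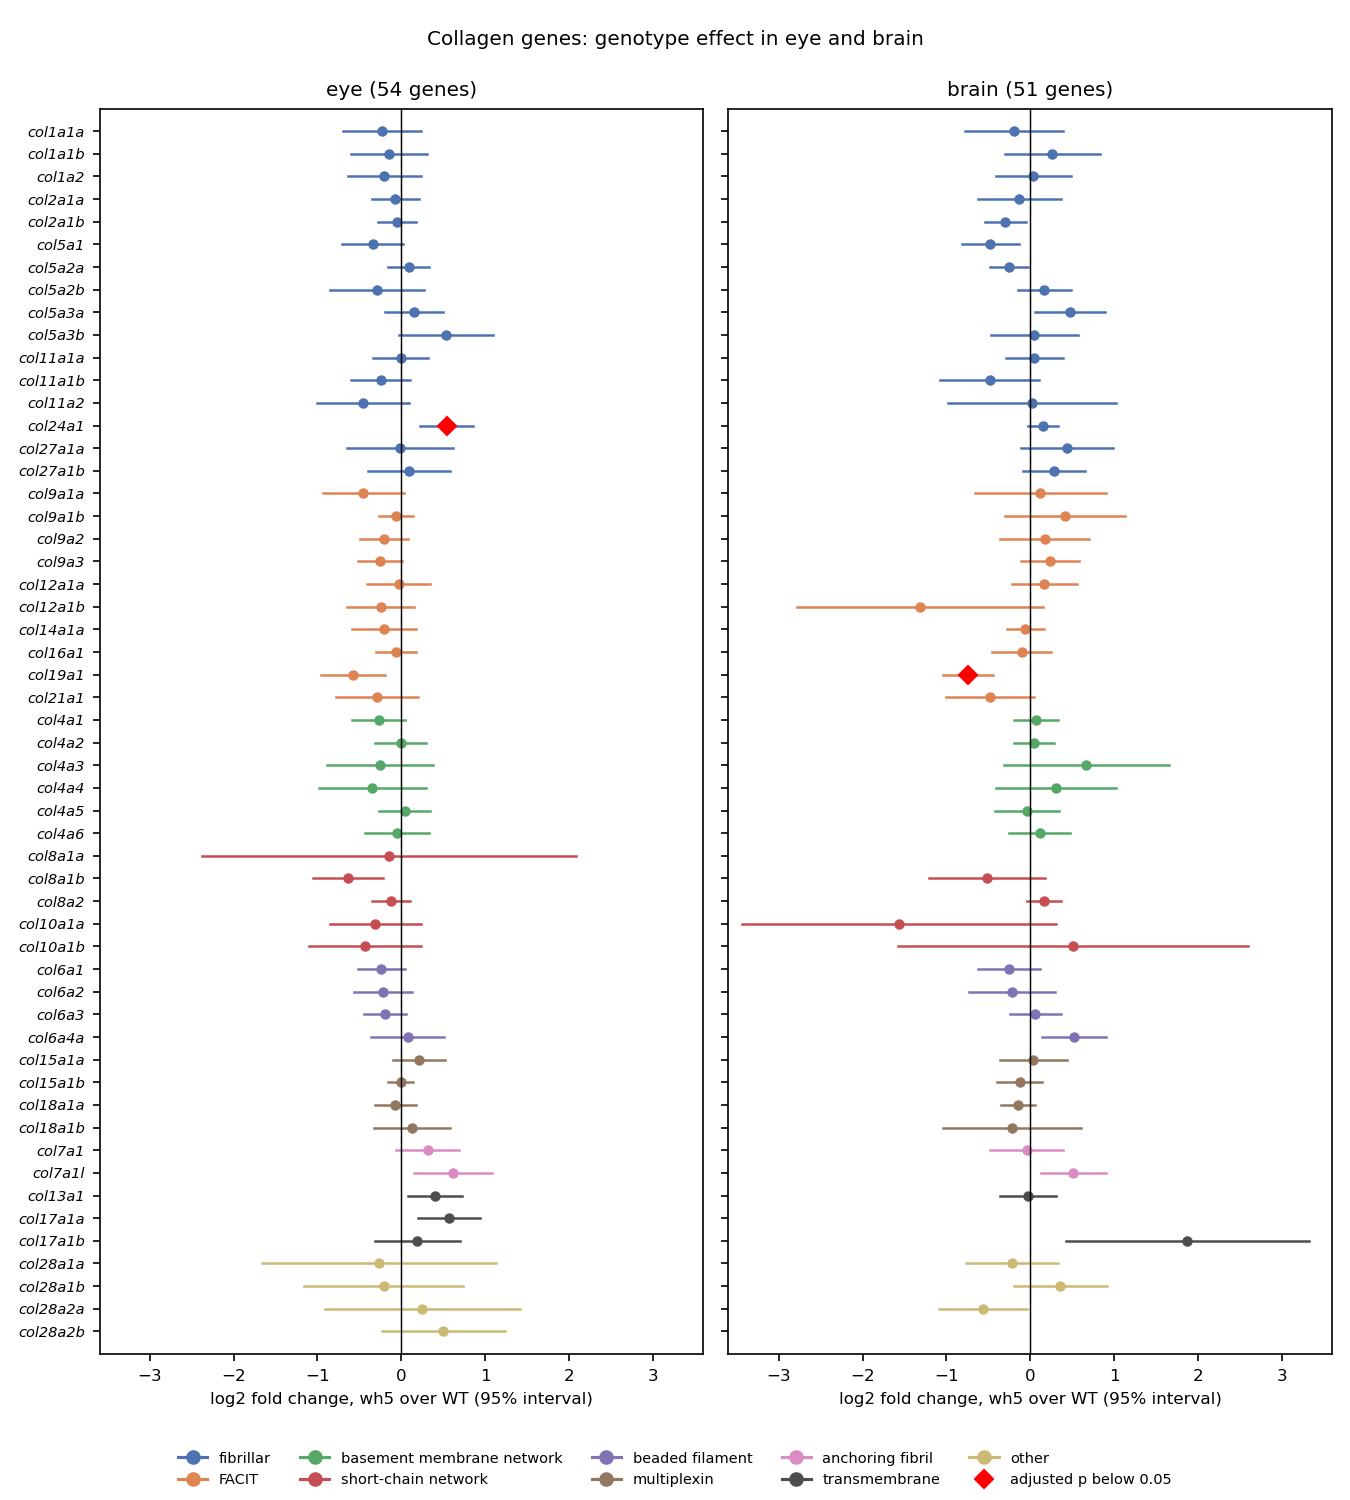
Log2 fold changes of wh5 over WT for each collagen gene in the authors' deposited tables, eye on the left (54 genes) and brain on the right (51 genes), with points for the estimates, lines for 95% intervals (1.96 SE) and colours for classes. The 2 red diamonds mark the genes with an adjusted p below 0.05, col24a1 above 0 in eye and col19a1 below 0 in brain.

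Among the fibrillar genes of the eye, 5 of 16 had a positive and 11 a negative log2 fold change, with a median of -0.06. All type I genes were below 0 in the authors' deposited table, col1a1a at -0.23 (SE 0.24), col1a1b at -0.14 (SE 0.23) and col1a2 at -0.20 (SE 0.22), each less than its own SE away from 0. Type V chains regulate the diameter of type I fibrils. Of these, col5a1 had -0.34 (SE 0.19, adjusted p = 0.394) and col5a3b had 0.53 (SE 0.29, adjusted p = 0.381) by the authors' deposited table, on opposite sides of 0. The other type V genes had 0.09 (SE 0.13) for col5a2a, -0.29 (SE 0.28) for col5a2b and 0.15 (SE 0.18) for col5a3a in the authors' deposited table. The genes of type II collagen, the main fibril protein of cartilage and of the vitreous, were close to 0 in the authors' deposited table, at -0.07 (SE 0.14) for col2a1a and -0.05 (SE 0.12) for col2a1b. Their 95% intervals were -0.35 to 0.21 and -0.28 to 0.18. Type XI chains form the core of cartilage fibrils together with type II. The authors' deposited table gives -0.0067 (SE 0.17) for col11a1a, -0.25 (SE 0.18) for col11a1b and -0.45 (SE 0.28) for col11a2. The genes of type XXVII, a fibrillar collagen of cartilage, had -0.01 (SE 0.32) for col27a1a and 0.09 (SE 0.25) for col27a1b in the authors' deposited table.

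All 10 fibril-associated genes were below 0 in eye, with none called and a median of -0.23. The type IX genes, whose product decorates type II fibrils in cartilage and vitreous, had values in the authors' deposited table of -0.45 (SE 0.25) for col9a1a, -0.06 (SE 0.10) for col9a1b, -0.21 (SE 0.15) for col9a2 and -0.25 (SE 0.13, adjusted p = 0.382) for col9a3. The authors' deposited table gives col12a1a, coding for a collagen on the surface of type I fibrils, -0.03 (SE 0.19) and its copy col12a1b -0.25 (SE 0.21). For col14a1a and col16a1, both coding for fibril-associated chains, the authors' deposited table gives -0.20 (SE 0.20) and -0.07 (SE 0.12). The lowest value in the class was that of col19a1, described with the brain. The 5 short-chain network genes were also all below 0, with a median of -0.31. Type VIII collagen forms the hexagonal lattice of Descemet's membrane, the basement membrane of the corneal endothelium. The lowest value of all collagen genes in eye was that of col8a1b, -0.64 (SE 0.21, adjusted p = 0.0917) by the authors' deposited table, while its partner chain col8a2 had -0.12 (SE 0.12). The type X genes had -0.31 (SE 0.28) for col10a1a and -0.44 (SE 0.34) for col10a1b in the authors' deposited table. For col8a1a, at a base mean of 4.80, the SE was 1.14, so little can be read from it.

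All 3 transmembrane genes and both anchoring-fibril genes were above 0 in the eye, and none of the 5 was called. Collagen XVII spans the basal cell membrane at hemidesmosomes, and collagen VII forms the fibrils that anchor the epithelial basement membrane to the stroma. For col17a1a the authors' deposited table gives 0.57 (SE 0.19, adjusted p = 0.0941), and for its copy col17a1b 0.19 (SE 0.26). The authors' deposited table gives col7a1 0.31 (SE 0.19, adjusted p = 0.467) and the related col7a1l 0.62 (SE 0.24, adjusted p = 0.172). The other transmembrane gene, col13a1, whose product is found at cell adhesions and neuromuscular junctions, had 0.40 (SE 0.16, adjusted p = 0.191) by the authors' deposited table. Markers of corneal and surface epithelium lay on the same side. Of 12 measured, 10 were above 0 with a median of 0.43, and icn2 was called at 0.79 (SE 0.21, adjusted p = 0.0192) by the authors' deposited table. Their base means in eye ran between 908 and 212980. Cartilage markers lay on the side of the type IX and X genes, with 11 of 13 below 0, a median of -0.34 and none called. That side also held 38 of all 54 members, while the type II genes of cartilage were close to 0. Bone markers in eye were split, 4 above and 4 below 0, with a median of 0.0069. The grouping by epithelium and cartilage was made after the values were seen. The part of cell composition in these values was not tested. The genes col13a1 and col17a1b and the epithelial marker epcam lie on the chromosome that holds cyp1b1, and the part of linkage in their values was not tested either.

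The remaining classes of the eye held no called gene. Of the 6 collagen IV genes, 5 were below 0 with a median of -0.15. The chains col4a1 and col4a2, which pair in nearly all basement membranes, had -0.27 (SE 0.16) and -0.01 (SE 0.15) in the authors' deposited table. The chains col4a3, col4a4 and col4a5, which form the network of specialised membranes such as the lens capsule in mammals, had -0.25 (SE 0.32), -0.35 (SE 0.33) and 0.04 (SE 0.16) in the authors' deposited table. Collagen VI forms beaded filaments around cells. Its chains had in the authors' deposited table -0.24 (SE 0.15) for col6a1, -0.22 (SE 0.18) for col6a2, -0.19 (SE 0.13) for col6a3 and 0.07 (SE 0.22) for col6a4a. The multiplexin genes, for collagens XV and XVIII of the basement membrane zone, included col15a1b, which had the smallest SE of all members in eye. The authors' deposited table gives it -0.0093 (SE 0.07) at a base mean of 3019, and its 95% interval was -0.16 to 0.14. The 4 type XXVIII genes had SEs of up to 0.71.

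In the brain, the fibril-associated gene col19a1 was lower in wh5 and was the called collagen gene. It was 1 of 51 members, 1.96%, where 0.736% of all 19300 genes were called and 0.368% were called lower. Collagen XIX is a basement membrane zone collagen that in mouse brain is made by interneurons. For col19a1 in brain the authors' deposited table gives -0.74 (SE 0.15, adjusted p = 0.000797) and a base mean of 187. The fold was 0.599, with a 95% interval of 0.486 to 0.738, and the gene ranked 37 of 19300 by p. The same gene in eye, at a base mean of 115, had -0.58 (SE 0.19, adjusted p = 0.0941) by the authors' deposited table, a fold of 0.669 with an interval of 0.513 to 0.871. The difference, eye minus brain, was 0.16 (SE 0.25), and the unadjusted p of the normal test, taken on both sides, was 0.521. The brain call held with the spread of all genes as the null distribution (adjusted p = 0.00729) and with filters on low base means (0.000805 and 0.000817).

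The gene col19a1 lies on the chromosome that holds cyp1b1, where 8.04% of the 709 genes tested in brain and 8.51% of the 717 tested in eye were called. In the gene order of the RefSeq assembly GRCz12tu, 34 protein-coding genes separate it from cyp1b1. Effects of the knockout and of linkage to its allele cannot be told apart for a gene in this position. It is 1 of 5 collagen genes on that chromosome, and 0 of the 46 members on other chromosomes were called in brain, where 0.454% of the 17845 genes on other chromosomes were called. Nothing particular to the members can be read from that 0. The other 4 on this chromosome are col9a1b, col17a1b, col13a1 and col21a1. A single protein-coding gene separates col9a1b from col19a1. In brain col9a1b had 0.42 (SE 0.37, adjusted p = 0.838), with a base mean of 15.99, in the authors' deposited table, on the other side of 0 from its neighbour. Of the 15 tested genes among the 10 on either side of col19a1, 2 were called in brain, 1 of them lower in wh5, and the median log2 fold change of the 15 was -0.0046. In eye 2 of 16 such neighbours were called, none of them lower, with a median of -0.06. The farthest of the 5, col21a1, has 715 protein-coding genes between it and cyp1b1, and the authors' deposited tables give it -0.29 (SE 0.25) in eye and -0.48 (SE 0.27) in brain.

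**Figure D3:**
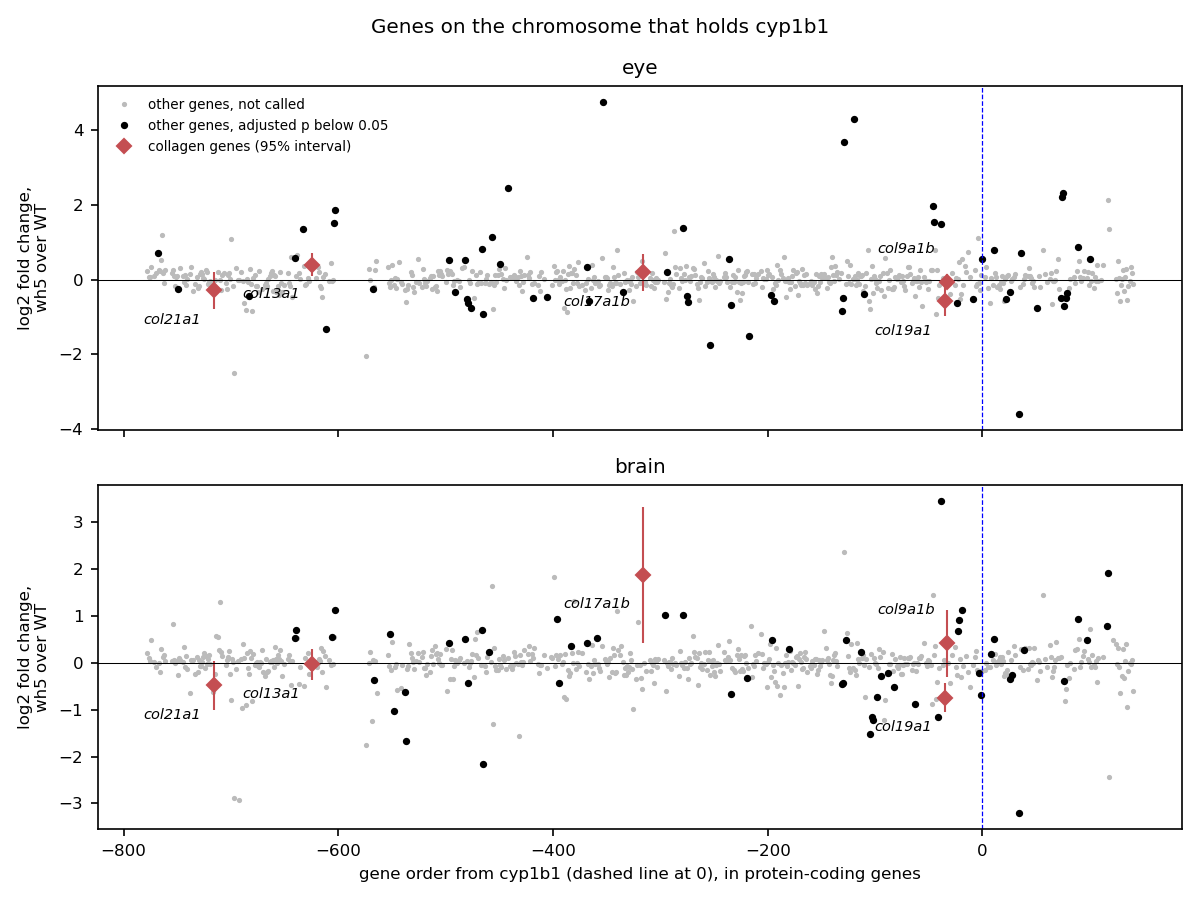
Log2 fold changes of wh5 over WT for the genes on the chromosome that holds cyp1b1, eye above and brain below, against their order in protein-coding genes counted from cyp1b1 (dashed line). Grey points are genes that were not called, black points other genes with an adjusted p below 0.05, and red diamonds the 5 collagen genes with 95% intervals, of which col19a1 was called in brain.

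Collagen genes of the brain lay on both sides of 0. Of the 51, 28 were above and 23 below 0 in the authors' deposited table, and the share below, 45.1%, stood against 50.5% of all genes. The median was 0.04, against -0.0014 over all genes, while the mean weighted by the inverse squared SE was -0.01. The count at an unadjusted p below 0.05 was 9 members, 17.6%, against 8.62% of all genes. At an adjusted p below 0.1 it was again col19a1 alone, where 1.06% of all genes were called. The median SE of the members was 0.19 in eye, at a median base mean of 879.9, and 0.21 in brain, at a median base mean of 111. In brain 37 of the 51 members had an interval within 1 log2 unit of 0, as did 16132 of all 19300 genes, which is a larger share.

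The members with the next smallest p in brain were not called. For col5a1 the authors' deposited table gives -0.47 (SE 0.17, adjusted p = 0.249) and for col5a2a, whose chain can join the same type V molecule, -0.25 (SE 0.12, adjusted p = 0.492). By contrast col5a3a, for another type V chain, had 0.47 (SE 0.21, adjusted p = 0.467) by the authors' deposited table. The type II gene col2a1b, at a base mean of 966, had -0.30 (SE 0.13, adjusted p = 0.429) by the authors' deposited table. Above 0 were col6a4a at 0.52 (SE 0.20, adjusted p = 0.272) and col7a1l at 0.51 (SE 0.20, adjusted p = 0.317) by the authors' deposited table. The largest positive value was that of col17a1b, with 1.88 (SE 0.74, adjusted p = 0.337) by the authors' deposited table, at a base mean of 19.03. Epithelial markers in brain also lay mostly above 0, 10 of 12 with a median of 0.26 and none called. Their part in the value of col17a1b was not tested, nor was that of linkage to cyp1b1 on the same chromosome. The most negative values were those of col10a1a at -1.57 (SE 0.95, base mean 35.7) and col12a1b at -1.31 (SE 0.75, base mean 382) in the authors' deposited table. Their 95% intervals, -3.44 to 0.31 and -2.78 to 0.15, include 0.

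The main basement membrane chains, which line the vessels of the brain, were close to 0. They had 0.07 (SE 0.13, base mean 372) for col4a1 and 0.05 (SE 0.12, base mean 329.8) for col4a2 in the authors' deposited table. Their folds lay within 0.874 to 1.26 and 0.878 to 1.22 with 95% confidence. Of 12 endothelial and mural markers 6 were above 0, with a median of 0.01 and none called. The type I genes, whose eye base means were 39.5 to 51.1 times those in brain, had wide intervals in brain, for col1a1a between -0.78 and 0.39. For col14a1a, a fibril-associated gene whose brain base mean was 917, the authors' deposited table gives -0.06 (SE 0.11). Other members with high base means in brain were col12a1a at 0.17 (SE 0.20), col16a1 at -0.10 (SE 0.18), col18a1a at -0.15 (SE 0.10) and col6a3 at 0.06 (SE 0.16) in the authors' deposited table. All 4 type IX genes were above 0 in brain and below 0 in eye, and none was called in either organ.

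Many collagen genes of zebrafish exist as a pair of copies, written a and b, and the copies were compared within each organ. In eye, both copies of 15 genes were measured, and 11 pairs lay on the same side of 0. In brain, 12 pairs were measured and 5 lay on the same side. The widest gap in brain was that of col10a1, where the authors' deposited table gives the a copy -1.57 (SE 0.95) and the b copy 0.51 (SE 1.06). The col12a1 pair had 0.17 (SE 0.20) for the a copy and -1.31 (SE 0.75) for the b copy in the authors' deposited table. In eye the pair col17a1, with 0.57 and 0.19 in the authors' deposited table, lay on the same side. Gaps between copies could not be tested, since they are measured in the same samples and their covariance is unknown. Reads that copies share may have been split or dropped, and the sources used here do not say how the authors counted them.

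No collagen gene had a genotype effect that differed between eye and brain after adjustment. Each difference of log2 fold changes, eye minus brain, was divided by its SE and read against a normal distribution on both sides, with p adjusted after Benjamini and Hochberg over 18275 genes. This called 0 of 51 members and 15 genes in all, 0.0821%, so nothing particular to the members can be read from that 0. The smallest adjusted p of a member was 0.577. At an unadjusted p below 0.05, 4 members passed, 7.84%, against 8.19% of all genes. They were col9a3, col17a1b, col24a1 and col5a2a. The value of col24a1 was 0.54 in eye and 0.16 (SE 0.09) in brain by the authors' deposited tables, a difference of 0.39 (SE 0.19, adjusted p = 0.595). For col9a3 the authors' deposited tables give -0.25 in eye and 0.24 (SE 0.17) in brain, and the difference was -0.49 (SE 0.22, adjusted p = 0.577). The difference for col17a1b was -1.69 (SE 0.78) and that for col5a2a was 0.34 (SE 0.17). The test takes the organs as independent, which would not hold if they came from the same fish. In 25 of 51 members, 49.0%, both organs had the same sign, against 53.6% of all genes. All 6 collagen IV genes had opposite signs in eye and brain, and every one of their 95% intervals included 0.

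**Figure D4:**
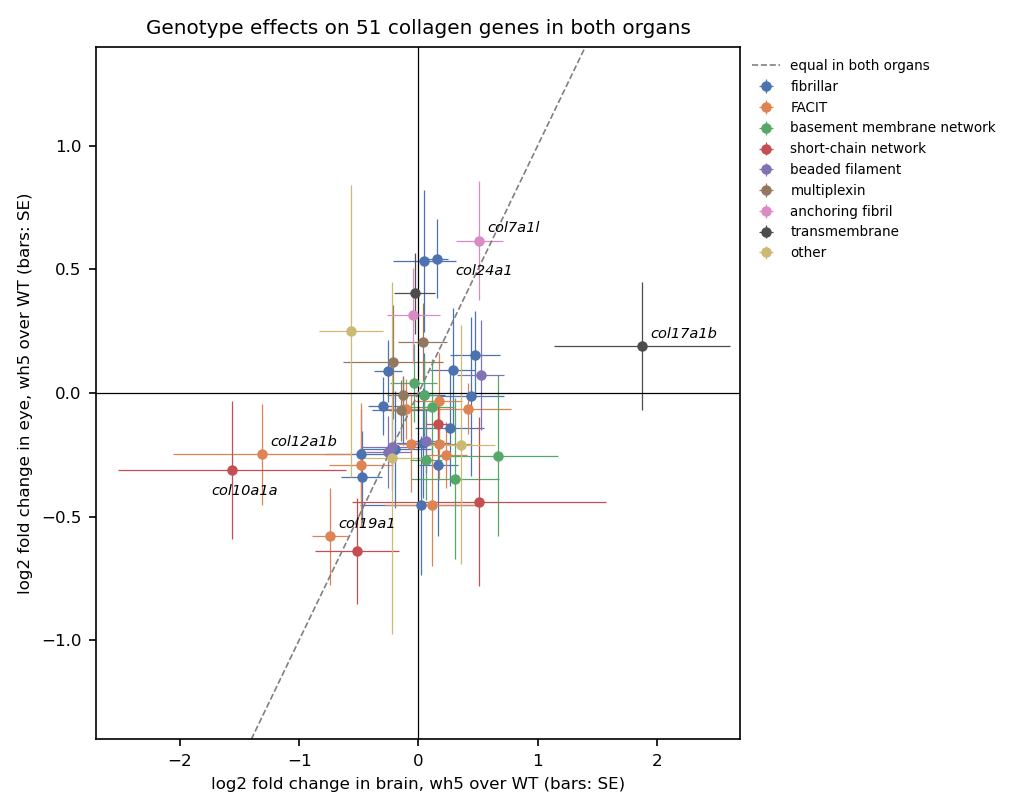
Log2 fold changes of wh5 over WT in eye (y axis) against brain (x axis) for the 51 collagen genes in both deposited tables, with bars of 1 SE and colours for classes; the dashed line marks equal effects. Points lie in all 4 quadrants, 25 of 51 with the same sign in both organs, and col19a1 is below 0 in both.

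Genes that make, cut, link, bind or turn over collagen were set beside the chains. Of 115 listed genes, 99 were measured in eye and 97 in brain. In eye 3 were called, 3.03% against 1.67% of all genes. All 3 were lower in wh5, and 0.7% of all genes were called lower. In brain 1 was called, 1.03% against 0.736% of all genes. The endoplasmic reticulum genes p3h2 and fkbp14 were called lower in wh5 eye. The first codes for a prolyl 3-hydroxylase that modifies collagen IV in mammals, the second for a prolyl isomerase that helps collagen fold. The authors' deposited table gives -0.53 (SE 0.13, adjusted p = 0.0097) for p3h2 and -0.37 (SE 0.10, adjusted p = 0.013) for fkbp14. Neither was called in brain, where the authors' deposited table gives -0.07 (SE 0.18) and 0.05 (SE 0.15). The other called gene was loxl3b, for a lysyl oxidase that crosslinks collagen, with -0.91 (SE 0.20, adjusted p = 0.00116) in eye and -2.15 (SE 0.35, adjusted p = 1.36e-06) in brain by the authors' deposited tables. It lies on the chromosome of cyp1b1, so effects of the knockout and of linkage to its allele cannot be told apart for loxl3b. The genes p3h2 and fkbp14 do not lie on that chromosome, and the cause of their values was not tested. The alternatives under which the eye call of col24a1 did not hold were run for collagen genes only. Whether the calls of p3h2, fkbp14 and loxl3b hold under them is not known.

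Among the genes of collagen making in eye, 21 of 26 were below 0, with a median of -0.14. The chaperone gene serpinh1b, which encodes the collagen-specific Hsp47, had -0.25 (SE 0.16) and the prolyl 4-hydroxylase gene p4ha1a had -0.47 (SE 0.17, adjusted p = 0.145) by the authors' deposited table. Genes for cleavage of procollagen ends were below 0 in 8 of 9 cases, with pcolcea at -0.10 (SE 0.20) and bmp1a at -0.0098 (SE 0.12) by the authors' deposited table. Over all 99 measured genes in eye, 72 were below 0 and the median was -0.11. In brain 47 of 97 were below 0, with a median of 0.02. In brain ppib, for a prolyl isomerase, had -0.08 (SE 0.09) and p4hb, for a prolyl 4-hydroxylase subunit, 0.09 (SE 0.09) in the authors' deposited table. The procollagen proteinase genes had bmp1a at -0.01 (SE 0.10) and bmp1b at 0.02 (SE 0.13) in brain, in the authors' deposited table.

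Collagen receptors, 13 measured in eye and 12 in brain, had no called member in either organ. Of all genes 1.67% were called in eye and 0.736% in brain. Nothing particular to so short a list can be read from that, and the same holds for the other lists without a call below. For the discoidin receptor gene ddr1 the authors' deposited tables give -0.06 (SE 0.16) in eye and 0.07 (SE 0.07) in brain. For the integrin gene itgb1a they give -0.24 (SE 0.10) in eye and 0.08 (SE 0.09) in brain. For itga1, also an integrin gene, they give -0.11 (SE 0.09) in eye and 0.13 (SE 0.09) in brain. Fibril partners had no called member either, with the matrix glycoprotein gene sparc at 0.08 (SE 0.11) in eye and 0.13 (SE 0.13) in brain in the authors' deposited tables. The decorin gene dcn, for a small proteoglycan on fibrils, had -0.12 (SE 0.14) in eye and -0.08 (SE 0.12) in brain by the authors' deposited tables. Among turnover genes the gelatinase gene mmp2 had -0.12 (SE 0.11) in eye and 0.0052 (SE 0.12) in brain, and the inhibitor gene timp2a -0.17 (SE 0.08) in eye and 0.12 (SE 0.07) in brain, in the authors' deposited tables. The authors' deposited table gives the collagenase gene mmp13a 1.70 (SE 0.60, adjusted p = 0.118) in eye and 1.95 (SE 0.81, adjusted p = 0.393) in brain, the highest values among the turnover genes, which also held no called member. Laminins, nidogens and other basement membrane partners had medians of -0.01 in eye and 0.08 in brain, with none called. The laminin genes lama4 and lamb1b had -0.03 (SE 0.10) and 0.21 (SE 0.09) in eye, and agrn and lamc3 had 0.08 (SE 0.09) and 0.40 (SE 0.12) in brain by the authors' deposited tables. Crosslinking genes had medians of -0.25 in eye and -0.02 in brain.

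**Figure D5:**
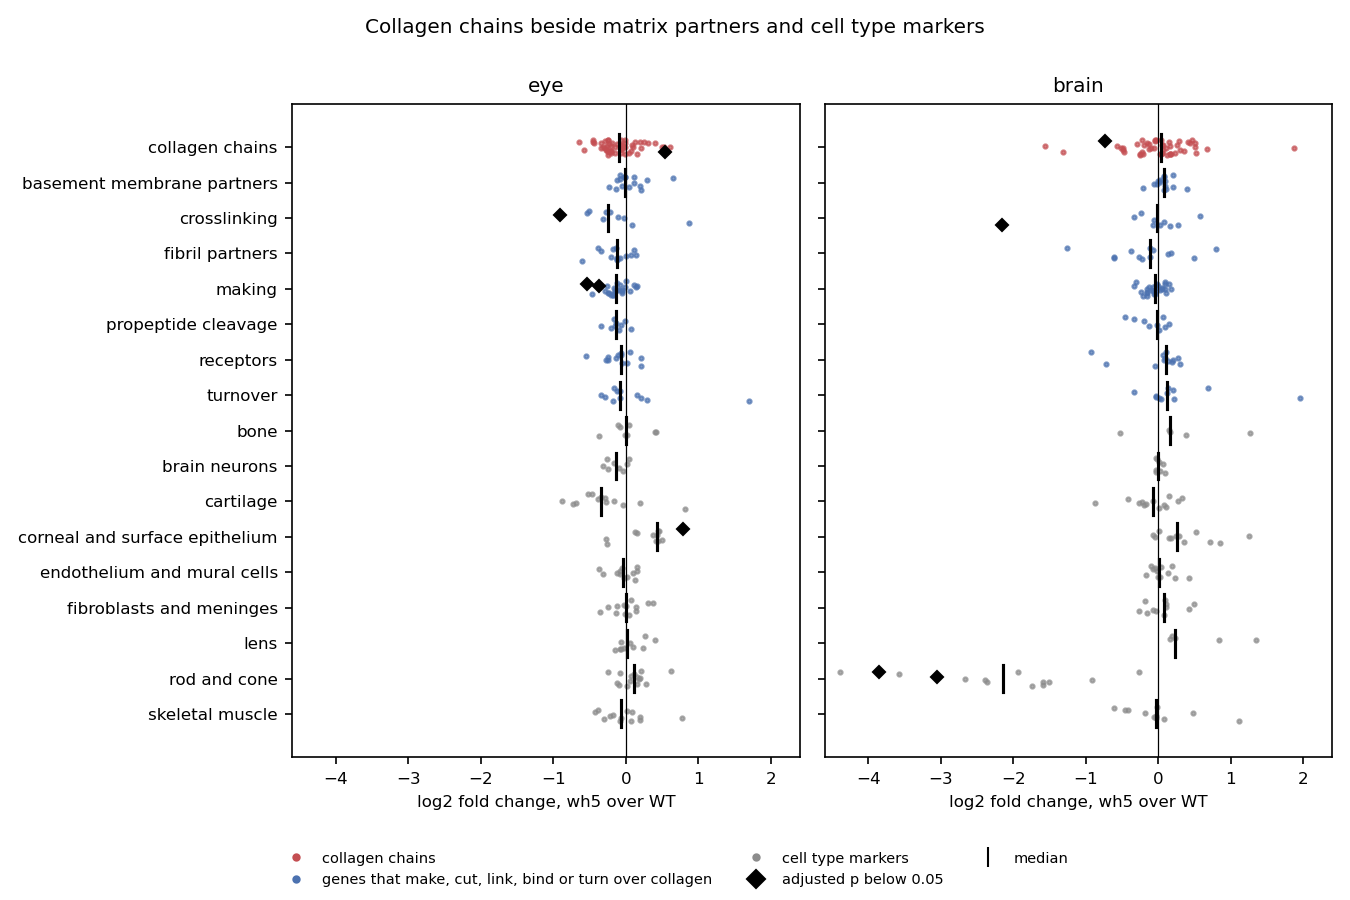
Log2 fold changes of wh5 over WT for collagen chains (red), genes that act on collagen (blue) and cell type markers (grey), eye on the left and brain on the right, with 1 point per gene and a bar at each list's median; black diamonds mark an adjusted p below 0.05. Collagen chains centre at -0.10 in eye and 0.04 in brain, and the epithelial markers at 0.43 and 0.26.

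Markers of the other tissues that these organs can carry were read in the same tables. Fibroblast and meningeal markers had medians of 0.0042 over 13 genes in eye and 0.08 over 11 in brain, bone markers 0.0069 over 8 and 0.16 over 5, and skeletal muscle markers -0.07 over 13 and -0.03 over 11, with none called. Lens markers had a median of 0.02 over 10 genes in eye and 0.23 over 5 in brain. Neuronal markers had -0.13 over 8 genes in eye and 0.00014 over 8 in brain. Rod and cone markers were at 0.11 over 15 genes in eye and -2.15 over 14 in brain, where opn1sw2 and gnat2 were called lower. The part of these markers in the collagen values was not tested. Vessel markers in eye had a median of -0.04 over 12 genes, and cartilage markers in brain -0.07 over 13. Markers of epithelium and cartilage in eye, given above, were the marker lists with medians farthest from 0 in that organ.

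A pair of further rows lies outside the rule because the deposited symbol is a clone or locus name, although their gene IDs carry the symbols col23a1a and col26a1 in RefSeq. The first had -0.25 (SE 0.12, adjusted p = 0.323) in eye and -0.05 (SE 0.29) in brain, and the second had 0.13 (SE 0.20) in eye and 0.19 (SE 0.48) in brain, all in the authors' deposited tables. Another 4 genes that RefSeq names by the same pattern, col14a1b, col22a1, col23a1b and col25a1, are not listed in the deposited table of either organ.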

How the data were processed

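Poly(A) RNA of 40 samples was sequenced, 20 from each organ. Per the submitters' processing notes, fastp, STAR, DESeq2 1.32.0 and genome build GRCz11 were used; the sources used here do not name the model formula, the filters or the counting method. Per the file headers, the authors deposited a log2 fold change per gene with its SE (base 2 as in DESeq2), a base mean, which is a signal in normalised counts, and a test score, the fold change over its SE. They also deposited a p-value per gene and its adjusted form, which equals the Benjamini-Hochberg value computed over each table within a relative tolerance of 0.00453. The direction, wh5 over WT, is the one the tables' names give.

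With no values of single samples, no model was refitted. Calls use the deposited adjusted p with a threshold of 0.05. Intervals are the estimate plus and minus 1.96 SE. Organ effects were compared by a normal test on the difference of the log2 fold changes, which takes the organs as independent. That independence was not tested. The robust SD of the test's statistics over 18275 genes was 1.14. Gene order was read from RefSeq (assembly GRCz12tu), which holds all 54 members, and no coordinates of it are given. Alternatives were a null distribution with the centre and robust SD of all genes' statistics, base mean minimums of 10 and 50, an absolute log2 fold change of 1 or more, a threshold of 0.1, and leaving out the chromosome of cyp1b1. Classes follow the type number. Genes named by rule were those called and their class, the 10 members with the highest base mean and the 5 with the smallest p not called per organ, the 3 largest changes at a base mean of at least 50, and, of the lists of genes acting on collagen, those called or the 2 with the highest base mean. Other genes given with values, among them col4a2, col4a3, col4a4, col4a5, col6a2, col7a1, col8a1a, col8a2, p4ha1a, serpinh1b, mmp13a and members that the rule names only in the other organ, were chosen after their values were seen, as was the grouping by cartilage and epithelium. Marker lists are given by medians. The members and lists were chosen with earlier results of these data known. Python 3.11.15 was used with scipy 1.17.1, numpy 2.4.6, pandas 2.3.3 and matplotlib 3.10.9.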

Additional observations from a re-analysis of the deposited data

How the results depend on the processing

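The count of called collagen genes was 1 in each organ and fell to 0 in both when the chromosome of cyp1b1 was left out and when only absolute log2 changes of 1 or more counted. In the first case the brain count falls because col19a1 lies on that chromosome, and in eye col24a1 moved past the threshold. With the spread of all genes' statistics as the null distribution the count was 0 in eye and 1 in brain. With an adjusted p below 0.1 it was 4 in eye (col24a1, col17a1a, col19a1 and col8a1b, 7.41% against 3.3% of all genes) and 1 in brain. The base mean minimums of 10 and 50 left 1 in each organ. Of 114 alternative values for 30 combinations of collagen gene and organ, 112 stayed on their side of the threshold and 2, both for col24a1 in eye, did not. Of the 30, only col24a1 in eye and col19a1 in brain were called to begin with, so most of these values had no call to lose. Calls of genes that are not collagen genes, such as p3h2, fkbp14, loxl3b, icn2, opn1sw2 and gnat2, were not put through these alternatives. The median over members was between -0.12 and -0.10 in eye and 0.04 in brain under every alternative that gave a median. The mean weighted by the inverse squared SE was -0.05 in eye and -0.01 in brain, where it differed in sign from the median. No collagen gene was called for a difference between organs under any alternative run. Adding the 2 genes named only in RefSeq, chosen after seeing the data, changed no count. No row of the rule lacked a collagen chain name, so none was left out on that ground. No paired analysis was possible because the tables hold no values of single samples, and leaving out replicates was not run for the same reason. Depth per library is unknown; the SE sets the precision, and the members with a base mean below 50, 3 in eye and 15 in brain, had median SEs of 0.59 in eye and 0.37 in brain.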
